A study of Homo sapiens with 16 samples.

Results

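RNF43 R117fs was set against green fluorescent protein (GFP) in HEK293 cells, an established line derived from human embryonic kidney. The members are the 4 libraries of cells overexpressing RNF43 with the R117fs frameshift and the 4 libraries of cells overexpressing GFP, 8 of the 16 libraries of the series, chosen by their labels. The other 8 libraries, 4 of cells overexpressing wild-type (WT) RNF43 and 4 overexpressing RNF43 G659fs, entered the same model and served to test whether a difference in R117fs cells was also a difference from the other RNF43 forms. All 16 are libraries of total RNA from the same cell line, and the labels name no RNF43 construct in GFP cells. How the constructs were delivered, for how long they were expressed and whether replicates were separate cultures are not given in the sources used here, so p-values measure only the spread between these libraries, which may be technical. The series was made to ask how the expression profile of a variant relates to that of the wild-type gene.

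RNF43 is a transmembrane ubiquitin ligase that is made in the endoplasmic reticulum (ER) and travels to the cell surface, where it marks Frizzled receptors for degradation and so dampens Wnt signalling. A frameshift at arginine 117 changes the reading frame within the extracellular part, ahead of the membrane span and of the RING domain that carries the ligase activity. Proteins that fold poorly in the ER lumen set off the unfolded protein response, in which the sensors ERN1 (IRE1), EIF2AK3 (PERK) and ATF6 signal to the nucleus. IRE1 removes a short piece from XBP1 mRNA, cleaved ATF6 and spliced XBP1 switch on chaperones, folding enzymes and degradation factors, and PERK raises translation of ATF4, which switches on DDIT3 (CHOP) and amino acid genes.

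Values below are CPM (counts scaled to a common library total) after TMM scaling, from estimated counts summed per gene, and 16787 genes were tested with edgeR's quasi-likelihood test and Benjamini-Hochberg adjustment over all of them. A gene is said to have risen or fallen where this adjusted p was under 0.05, and errors of log2 fold changes are standard errors. Totals were 20364357 to 41161835 estimated counts in R117fs libraries and 25441077 to 30937321 in GFP libraries. R117fs replicate 4 followed GC content: in the bin of genes with 35 to 40% GC its median log2 CPM difference from the other 3 R117fs libraries was -0.65, and in the bin of 60 to 65% GC it was 0.47. Counts over gene lists are therefore given with and without it, and single genes where leaving it out ended a call. The R117fs libraries differed from each other more than the GFP libraries did, so the spread shared by the 16-library model may understate their error, and the list counts are given with the 8 libraries alone too. Those 8 include R117fs replicate 4. HEK293 markers were present, with a summed level of 1110 to 1308 CPM over 8 genes in R117fs libraries and 970 to 1123 CPM in GFP libraries. Of 14 blood markers 9 were high enough to be tested, with a summed level of 9.08 to 15.7 CPM in R117fs libraries and 14.6 to 18.025 CPM in GFP libraries. Of those not tested, CD3E, MS4A1 and HBB were at 0 counts in all 4 R117fs libraries and at 0 to 2 counts in GFP libraries. PTPRC was at 0 to 2 counts in R117fs and 2 to 6 in GFP libraries, and SPI1 at 2 to 8 and 1 to 10 counts. Of 10 gut markers 4 were tested, with a summed level of 23.9 to 34.4 CPM in R117fs libraries and 20.6 to 22.8 CPM in GFP libraries. KRT20, FABP1 and TFF3 were at 0 in all 8, CDX1 at 0 to 1 counts, and GPA33 at 1 to 4 counts in R117fs and 0 to 2 in GFP libraries. Of 11 fibroblast markers 7 were tested, with a summed level of 51.1 to 79.25 CPM in R117fs libraries and 56.8 to 72.7 CPM in GFP libraries.

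**Figure D1:**
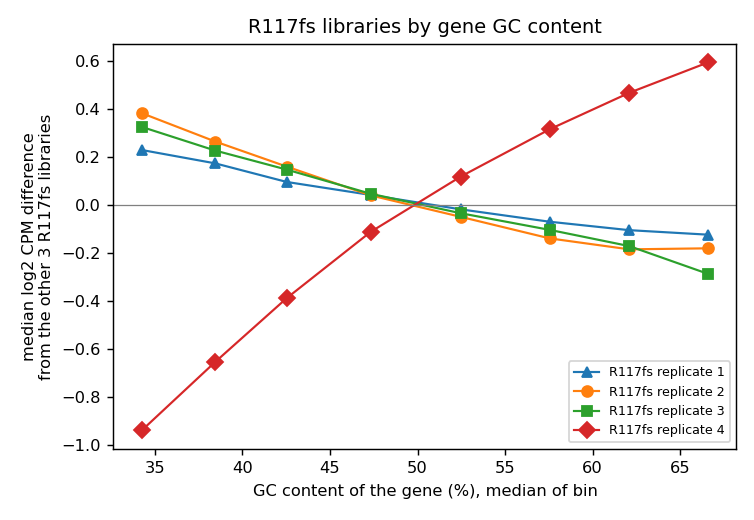
Median log2 CPM difference of each R117fs library from the mean of the other 3 (vertical axis) for genes binned by GC content (horizontal axis, percent). Replicate 4 runs upward, with -0.65 at 35 to 40% GC and 0.47 at 60 to 65% GC. The other 3 lines run downward, but each is measured against a mean that includes replicate 4, so they show no separate trend.

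RNF43 itself (ENSG00000108375, chromosome 17, 58352500 to 58417595, GRCh38, minus strand) was at 30191, 79637, 94568 and 69368 CPM in the 4 R117fs libraries, in replicate order, against 13.1, 34.3, 27.8 and 50.3 CPM in the 4 GFP libraries. Every R117fs library was far above every GFP library, and R117fs replicate 1 had the lowest level of the 4. The log2 fold change was 11.09 ± 0.53 (edgeR adjusted p = 4.69e-08, and 3.92e-07 without R117fs replicate 4). The transcript took 2.92 to 8.93% of all counts in R117fs libraries, against 0.00136 to 0.00526% in GFP libraries. RNF43 did not differ detectably between R117fs and WT RNF43 cells (0.36 ± 0.35 log2, edgeR adjusted p = 0.543) or between R117fs and G659fs cells (0.80 ± 0.35 log2, edgeR adjusted p = 0.144), with standard errors that leave room for differences of that order. The counts fell on different annotated transcripts. In R117fs libraries 99.1 to 99.9% of RNF43 counts were assigned to ENST00000577716, and 0.00177 to 0.0048% to ENST00000577625. In WT RNF43 libraries ENST00000577625 took 72.0 to 72.9%, and in G659fs libraries 71.7 to 72.3%. ENST00000577625 has 1968 coding bases and ENST00000577716 has 2349. The sequences of the constructs were not used here.

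Of the genes tested, 2620 (15.6%) passed. R117fs cells had 1182 (7.04%) at a higher and 1438 (8.57%) at a lower level than GFP cells. The change was 2-fold or more in 213 (1.27%), of which 48 had risen. In 7.29% of the genes tested all 4 R117fs libraries lay above all 4 GFP libraries, and in 9.19% below them. Without R117fs replicate 4, 3701 changed (21.7%), with 9.85% of all genes higher and 11.9% lower. Of the 2620, 2411 were called again with the same sign. With the 8 libraries alone, R117fs replicate 4 included, 588 changed (3.67%), 586 of them among the 2620. Of all genes 1.38% were then higher and 2.29% lower. These shares differ between fits, and list counts below are to be read beside them. With the 7 libraries left after dropping it, 2172 changed (13.4%), and 1671 of the 2620 were called again with the same sign. Median GC content was 55.2% in genes that rose and 45.7% in genes that fell, against 49.5% in all genes tested. Without replicate 4 these medians were 48.7% and 50.1%.

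Chaperones of the ER lumen had the highest median of the lists plotted further on. Of 26 genes of that list, 15 rose and 0 fell (7.04% and 8.57% of all genes). The list's median log2 fold change was 0.47, against -0.01 for all genes tested. HSPA5 (BiP), the main Hsp70 of the ER lumen, rose 3.36-fold, the glucose-regulated Hsp70 relative HYOU1 2.64-fold, the secreted and luminal factor MANF 2.89-fold and SDF2L1, a partner of the ER Hsp40 DNAJB11, 3.26-fold. Without R117fs replicate 4, 18 rose and 1 fell (9.85% and 11.9% of all genes), the one that fell being SDF2 at -0.18 log2 (edgeR adjusted p = 0.0369). With the 8 libraries alone 12 rose and 0 fell (1.38% and 2.29%).

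HSPA5 (ENSG00000044574, chromosome 9, 125234853 to 125241330, minus strand) was at 1254, 2427, 2649 and 2146 CPM in R117fs libraries, against 652, 649, 620.0 and 600.0 CPM in GFP libraries. The lowest R117fs library, replicate 1, lay above the highest GFP library, and the other 3 lay clearly above replicate 1. Its log2 fold change was 1.75 ± 0.15 (edgeR adjusted p = 5.24e-07, 3.9e-05 without R117fs replicate 4 and 0.000658 with the 8 libraries alone). In R117fs cells it exceeded WT RNF43 cells by 0.97 ± 0.14 log2 (edgeR adjusted p = 0.000665) and G659fs cells by 1.40 ± 0.14 log2 (edgeR adjusted p = 1.34e-05). The group means were 2119 ± 612 CPM in R117fs, 1082 ± 4.4 CPM in WT RNF43, 804 ± 27.8 CPM in G659fs and 630.2 ± 24.8 CPM in GFP cells (SD, n = 4 each).

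HYOU1 was at 223, 299.8, 304 and 367 CPM in R117fs libraries, against 125, 109.8, 117 and 100.4 CPM in GFP libraries. MANF was at 102, 173, 188 and 182 CPM in R117fs libraries, against 54.1, 56, 57.7 and 54.8 CPM in GFP libraries. SDF2L1 was at 40.6, 74.2, 64.3 and 103 CPM in R117fs libraries, against 24.1, 23, 18.9 and 20.3 CPM in GFP libraries. For all of these genes the groups did not overlap and replicate 1 was the lowest R117fs library. Replicate 4 was the highest of the 4 for HYOU1 and SDF2L1, and replicate 3 for HSPA5 and MANF. The log2 fold changes were 1.40 ± 0.11 for HYOU1, 1.53 ± 0.13 for MANF and 1.71 ± 0.19 for SDF2L1 (edgeR adjusted p = 2.2e-07, 7.46e-07 and 1.88e-05).

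Further chaperones rose by smaller amounts. HSP90B1 (GRP94), the Hsp90 of the ER lumen, averaged 1278 ± 288 CPM in R117fs and 678 ± 24 CPM in GFP cells (0.91 ± 0.11 log2, edgeR adjusted p = 2.75e-05). CRELD2, a luminal protein induced by ER stress, averaged 61.5 ± 11.9 CPM in R117fs and 31.6 ± 0.869 CPM in GFP cells (0.95 ± 0.10 log2, edgeR adjusted p = 1.16e-05). The BiP co-chaperone DNAJB11 changed by 0.82 ± 0.09 log2, the lectin chaperone CALR by 0.72 ± 0.10, and the prolyl isomerases FKBP2, PPIB and FKBP10 by 0.69 ± 0.09, 0.60 ± 0.06 and 0.57 ± 0.09 (edgeR adjusted p = 2.46e-05, 0.000166, 0.000107, 6.17e-06 and 0.000465). The nucleotide exchange factor SIL1 and the co-chaperones DNAJC3, DNAJB9 and DNAJC1 also rose, by 0.30 to 0.48 log2. DNAJC3, DNAJB9 and DNAJC1 did not pass with the 8 libraries alone (edgeR adjusted p = 0.0924, 0.0826 and 0.116). The lectin chaperone CANX, partner of CALR, stood at 0.23 ± 0.09 log2 and did not pass (edgeR adjusted p = 0.0847), but passed without replicate 4 (0.33 log2, edgeR adjusted p = 0.000204). The collagen chaperone SERPINH1 was at -0.05 ± 0.13 log2 (edgeR adjusted p = 0.849). Of the 26 genes, 10 were higher in R117fs than in WT RNF43 cells and 12 higher than in G659fs cells, against 4.5% and 8.02% of all genes, and 0 and 2 were lower.

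**Figure D2:**
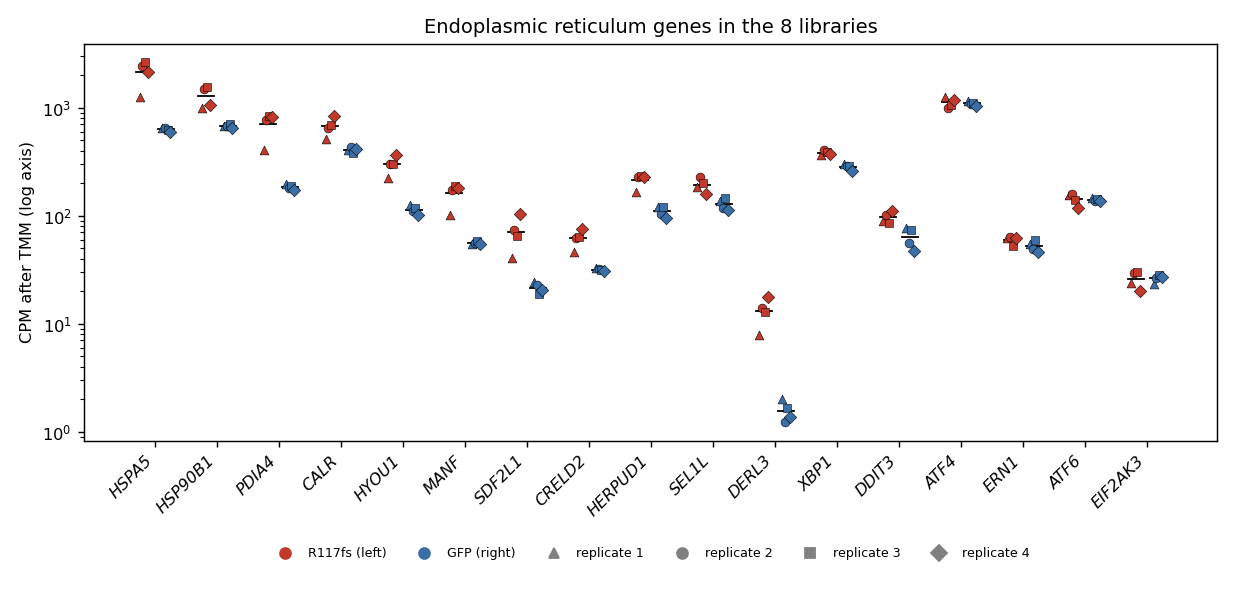
CPM after TMM scaling (log axis) of 17 ER genes in each R117fs library (red, left) and each GFP library (blue, right), with the group mean as a bar and the replicate as the symbol. For HSPA5 the R117fs libraries lie at 1254 to 2649 CPM, above the GFP libraries at 652, 649, 620.0 and 600.0, while ATF4, ATF6 and EIF2AK3 overlap between groups.

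Promoters of several of these genes hold an ER stress response element, the sequence that ATF6 and XBP1 are known to bind together with NF-Y. The element was searched on both strands in 250 bases before to 50 after the start of each gene in RefSeq promoters (GRCh38.p14), in 2 forms. The first, ERSE, reads CCAAT, then any 9 bases, then CCACG, in 19 bases. The second, ERSE-II, reads ATTGG, then any base, then CCACG, in 11 bases. Of the 16787 genes tested, 11820 had a promoter in the table, and 29 of those (0.245%) held either form. Among genes that rose it was 14 of 894 (1.57%), among genes that fell 1 of 1070 (0.0935%), and among genes not called 14 of 9856 (0.142%). Among risen list members with a promoter in the table, 6 of 13 ER lumen chaperones, 1 of 7 degradation genes, 1 of 12 N-glycosylation genes and 1 of 4 sensors and factors of the unfolded protein response held one. None was found in the 6 risen isomerases, the 10 risen translocon genes, the 13 risen vesicle genes or the 6 risen genes of the ATF4 arm that had a promoter there. A match is a description of the letters, not evidence of binding in these cells. The elements below belong to risen genes described here and are shown beside the values of those genes. Capitals mark the element, read 5′ to 3′ on the strand of the gene.
HSPA5, chr9:125241381-125241419, minus strand: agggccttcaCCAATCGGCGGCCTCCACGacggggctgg
SDF2L1, chr22:21642104-21642134, plus strand: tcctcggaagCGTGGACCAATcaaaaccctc
HYOU1, chr11:119057264-119057400, minus strand: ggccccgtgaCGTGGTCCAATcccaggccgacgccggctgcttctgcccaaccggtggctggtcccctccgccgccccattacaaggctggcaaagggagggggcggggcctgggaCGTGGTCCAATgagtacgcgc
HERPUD1, chr16:56932015-56932045, plus strand: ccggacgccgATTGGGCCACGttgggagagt
CRELD2, chr22:49918544-49918582, plus strand: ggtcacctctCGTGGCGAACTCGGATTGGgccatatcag
CALR, chr19:12938374-12938412, plus strand: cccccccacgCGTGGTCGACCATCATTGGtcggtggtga
HSP90B1, chr12:103930206-103930349, plus strand: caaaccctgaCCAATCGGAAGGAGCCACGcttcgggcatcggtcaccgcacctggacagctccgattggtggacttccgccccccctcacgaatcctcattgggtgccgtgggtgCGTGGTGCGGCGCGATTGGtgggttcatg
XBP1, chr22:28800593-28800631, minus strand: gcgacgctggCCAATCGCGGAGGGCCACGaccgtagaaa
HYOU1 has 2 ERSE-II copies and HSP90B1 has 2 ERSE copies in the stretches shown. The CRELD2 element lies between 2 genes that start in opposite directions, and the same bases read on the other strand are the element of ALG12, an N-glycosylation enzyme that rose by 0.41 ± 0.10 log2 (edgeR adjusted p = 0.00826). The promoters of MANF and PDIA4 held no match, which says only that these letters are not in this window.

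Oxidative folding enzymes had 8 members that rose. Of 21 disulfide isomerases and ER oxidoreductases, 8 rose and 0 fell (7.04% and 8.57% of all genes), with a median log2 fold change of 0.19. Without R117fs replicate 4, 10 rose and 0 fell (9.85% and 11.9%). PDIA4, a disulfide isomerase of the ER lumen, was at 405, 776, 831 and 812 CPM in R117fs libraries, against 196, 180.1, 189 and 173 CPM in GFP libraries. Replicate 1 stood alone, well below the other 3 R117fs libraries and above every GFP library. PDIA4 rose 3.82-fold (1.94 ± 0.15 log2, edgeR adjusted p = 2.2e-07) and was also higher than in WT RNF43 cells (1.42 ± 0.15 log2, edgeR adjusted p = 2.09e-05) and G659fs cells (1.58 ± 0.15 log2, edgeR adjusted p = 4.62e-06). The isomerases PDIA6, P4HB and PDIA3 rose by 0.70 ± 0.07, 0.67 ± 0.08 and 0.51 ± 0.06 log2 (edgeR adjusted p = 5.36e-06, 2.83e-05 and 4.77e-05). PDIA6 and P4HB were higher than in both other RNF43 groups, with edgeR adjusted p of 0.00486 and 0.00486 against WT RNF43 and 0.00146 and 0.00702 against G659fs. TXNDC5 and PDIA5, a further pair of isomerases, rose by 0.47 ± 0.05 and 0.47 ± 0.08 log2, and neither differed detectably from WT RNF43 cells (edgeR adjusted p = 0.465 and 1). With the 8 libraries alone 6 of the 21 rose (1.38% of all genes), PRDX4 and SELENOM being the 2 that no longer passed (edgeR adjusted p = 0.0879 and 0.189).

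Genes of ER-associated degradation, which returns misfolded proteins to the cytosol for the proteasome, split. Of 34, 8 rose and 2 fell (7.04% and 8.57% of all genes), and the median log2 fold change was 0.02. The risen members included the retrotranslocation factor DERL3, the largest change of the list. DERL3 was at 7.83, 13.8, 12.8 and 17.5 CPM in R117fs libraries, against 2.01, 1.21, 1.66 and 1.38 CPM in GFP libraries, again with no overlap and with replicate 1 lowest. It rose 8.12-fold (3.02 ± 0.22 log2, edgeR adjusted p = 1.35e-07), and was higher than in WT RNF43 cells by 1.74 ± 0.19 and in G659fs cells by 2.52 ± 0.20 log2 (edgeR adjusted p = 3.29e-05 and 9.25e-07). Its relatives DERL1 and DERL2 were at 0.02 ± 0.05 and 0.15 ± 0.09 log2 and did not pass (edgeR adjusted p = 0.871 and 0.268).

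HERPUD1, a membrane scaffold of the degradation complex, was at 165, 229, 234 and 226 CPM in R117fs libraries, against 119, 103, 121 and 95.7 CPM in GFP libraries. SEL1L, the adaptor of the ubiquitin ligase SYVN1 (HRD1), was at 185, 226, 202 and 159 CPM in R117fs libraries, against 136, 118, 145 and 112 CPM in GFP libraries. Groups did not overlap for either gene, and for SEL1L replicate 4 was the lowest R117fs library. The log2 fold changes were 0.96 ± 0.10 for HERPUD1, 0.60 ± 0.12 for SEL1L and 0.48 ± 0.09 for SYVN1 (edgeR adjusted p = 1.01e-05, 0.00363 and 0.0017). All of these exceeded both WT RNF43 cells (edgeR adjusted p = 0.0104, 0.0203 and 0.00477) and G659fs cells (edgeR adjusted p = 3.61e-05, 0.000182 and 0.00329). The selenoproteins SELENOS and SELENOK, the lectin OS9 and AUP1 rose by 0.20 to 0.48 log2. The 2 that fell were UBXN8, a membrane anchor for the ATPase VCP, at -0.85 ± 0.10 log2, and the ubiquitin-conjugating enzyme UBE2J2 at -0.34 ± 0.10 log2 (edgeR adjusted p = 2.47e-05 and 0.0263). VCP itself was at 0.01 ± 0.05 log2 (edgeR adjusted p = 0.891), and the mannosidase-like factor EDEM1 at 0.06 ± 0.08 log2 (edgeR adjusted p = 0.66). Without R117fs replicate 4, 10 rose and 4 fell (9.85% and 11.9% of all genes). With the 8 libraries alone 5 rose and 1 fell (1.38% and 2.29%).

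Protein entry, glycosylation and vesicle transport follow along the path of a secreted protein. Of 25 translocon, signal recognition and signal peptidase genes, 11 rose and 1 fell (7.04% and 8.57% of all genes), with a median of 0.25 log2. The translocon-associated proteins SSR4 and SSR2 rose by 0.72 ± 0.10 and 0.50 ± 0.06 log2, the channel subunits SEC61A1 and SEC61B by 0.48 ± 0.06 and 0.41 ± 0.07, and the signal peptidase subunit SEC11C by 0.48 ± 0.07 (edgeR adjusted p = 0.000138, 4.38e-05, 4.38e-05, 0.000598 and 0.00017). SEC61A2, the minor channel form, fell by 0.52 ± 0.08 log2 (edgeR adjusted p = 0.000374). Leaving out R117fs replicate 4, 17 rose and 1 fell (9.85% and 11.9% of all genes). With the 8 libraries alone 7 rose and 1 fell (1.38% and 2.29%). Replicate 4 was the lowest R117fs library for this list: the summed level was 3524 CPM in replicate 4, against 4108 to 4399 CPM in the other R117fs libraries and 3378 to 3554 CPM in GFP libraries. The mean GC content of the 25 genes was 44.7%.

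Of 36 N-glycosylation genes, 14 rose and 1 fell (7.04% and 8.57% of all genes), with a median of 0.15 log2. The oligosaccharyltransferase subunits RPN1, STT3A and DDOST rose by 0.40 ± 0.05, 0.35 ± 0.06 and 0.35 ± 0.06 log2 (edgeR adjusted p = 3.47e-05, 0.000768 and 0.000768). DPAGT1, the first enzyme of the lipid-linked sugar, rose by 0.42 ± 0.07 log2 (edgeR adjusted p = 0.000863), and ALG14, which acts next, fell by 0.38 ± 0.09 log2 (edgeR adjusted p = 0.00953). Of the 36, 16 rose and 1 fell without R117fs replicate 4 (9.85% and 11.9% of all genes). With the 8 libraries alone 5 rose and 0 fell (1.38% and 2.29%).

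Of 39 genes of COPII and COPI vesicles, which carry cargo between the ER and the Golgi, 15 rose and 1 fell (median 0.15 log2). Of all genes 7.04% rose and 8.57% fell. The COPII coat subunit SEC24D was at 50.3, 77.6, 83.9 and 63.7 CPM in R117fs libraries, against 43.3, 42.5, 38.6 and 44.1 CPM in GFP libraries. All R117fs libraries lay above the GFP libraries, replicate 1 the least. SEC24D rose by 0.71 ± 0.11 log2, PREB, which activates the COPII GTPase, by 0.63 ± 0.10, and the cargo receptor TMED9 by 0.54 ± 0.09 (edgeR adjusted p = 0.000496, 0.000621 and 0.00048). SEC24B, another subunit of the same kind, fell by 0.29 ± 0.08 log2 (edgeR adjusted p = 0.0154). Leaving out R117fs replicate 4, 24 rose and 2 fell (9.85% and 11.9% of all genes). With the 8 libraries alone 6 rose and 0 fell (1.38% and 2.29%). Of all genes 4.5% were higher in R117fs than in WT RNF43 cells and 8.02% higher than in G659fs cells. Across these vesicle genes 1 was higher than in WT RNF43 cells and 13 higher than in G659fs cells. Among the translocon genes those counts were 1 and 7, and among the N-glycosylation genes 2 and 5. With R117fs replicate 4 left out, 2 vesicle genes were higher than in WT RNF43 and 17 higher than in G659fs cells, 1 and 13 translocon genes, and 5 and 12 N-glycosylation genes, against 4.7% and 12% of all genes.

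**Figure D3:**
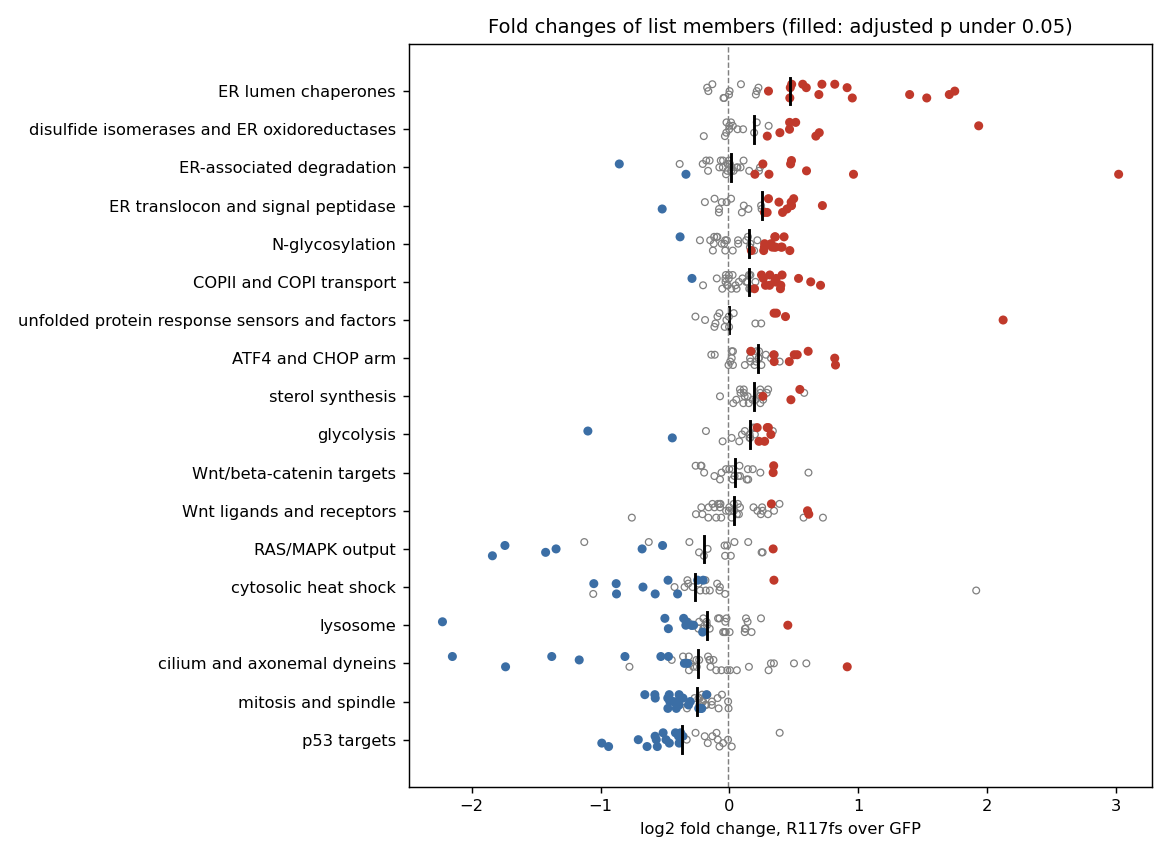
Log2 fold change, R117fs over GFP, of each tested member of 18 gene lists, filled where edgeR adjusted p was under 0.05 (red higher, blue lower) and open where it was not, with the list median as a black bar and the median of all genes tested, -0.01, as a dashed line. ER lumen chaperones have the highest median shown, 0.47, and p53 targets the lowest, -0.37.

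The sensors ERN1, ATF6 and EIF2AK3 did not pass at the transcript level with the 16 libraries, while some factors of the same list did. Of 17 sensors and their transcription factors 4 rose and 0 fell (7.04% and 8.57% of all genes), and the median was -0.00418 log2. Without R117fs replicate 4, 4 rose and 3 fell (9.85% and 11.9% of all genes). The 3 were ATF6B, CREB3L1 and NFYC, at -0.31, -0.24 and -0.17 log2 (edgeR adjusted p = 0.0206, 0.0401 and 0.0392). With the 8 libraries alone 3 rose and 0 fell (1.38% and 2.29%). ERN1 was at 61.6, 64, 52.9 and 61.5 CPM in R117fs libraries, against 55.1, 48.9, 59.1 and 45.8 CPM in GFP libraries, and the groups overlapped. ERN1, ATF6 and EIF2AK3 had log2 fold changes of 0.20 ± 0.09, 0.03 ± 0.09 and -0.02 ± 0.10 (edgeR adjusted p = 0.141, 0.846 and 0.906), and none passed. ATF4 was at 1246, 997, 1060.1 and 1170.4 CPM in R117fs libraries, against 1142, 1087, 1113 and 1046 CPM in GFP libraries (0.03 ± 0.06 log2, edgeR adjusted p = 0.808). These are RNA levels, and neither cleavage of ATF6 nor phosphorylation was measured.

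The 4 that rose were XBP1, CREB3L2, WFS1 and BHLHA15. XBP1 was at 365, 409.9, 387 and 373 CPM in R117fs libraries, against 304, 286, 286 and 261 CPM in GFP libraries, without overlap (0.44 ± 0.07 log2, edgeR adjusted p = 0.000328). It did not differ detectably between R117fs and WT RNF43 cells (-0.13 ± 0.07 log2, edgeR adjusted p = 0.232). BHLHA15 (MIST1), a known target of XBP1 in secretory cells, was low, at 0.527, 0.826, 1.5 and 1.34 CPM in R117fs libraries, against 0.19, 0.147, 0.369 and 0.112 CPM in GFP libraries. Its groups did not overlap (2.12 ± 0.38 log2, edgeR adjusted p = 0.00127). The ER membrane factor CREB3L2 and the ER calcium regulator WFS1 rose by 0.35 ± 0.06 and 0.37 ± 0.10 log2 (edgeR adjusted p = 0.000846 and 0.0181), and WFS1 did not pass with the 8 libraries alone (edgeR adjusted p = 0.142).

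Splicing of XBP1 by IRE1 could be read from the transcripts. The spliced form lacks 26 bases of exon 4, bases 570 to 595 of ENST00000216037, at chr22:28796124-28796149 on the minus strand (GRCh38, GENCODE 29). Repeated letters at both edges allow 7 equal placements of the gap, and it is placed here at the known IRE1 cut sites. The piece is shown in capitals in the unspliced sequence, with 30 bases on each side, because the share of counts without it is the result that follows.
XBP1 unspliced: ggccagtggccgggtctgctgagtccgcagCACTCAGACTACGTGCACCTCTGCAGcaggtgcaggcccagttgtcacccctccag
XBP1 spliced: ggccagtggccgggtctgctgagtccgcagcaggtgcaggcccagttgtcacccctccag
Of XBP1 estimated counts, 23.4, 45.9, 47.8 and 33.2% lay on the 2 spliced transcripts in R117fs libraries, against 12.3, 11.95, 8.98 and 13.2% in GFP libraries. Every R117fs library was above every GFP library, and replicate 1 was nearest to them. The means were 37.6 ± 11.5% in R117fs and 11.6 ± 1.84% in GFP cells (SD, n = 4 each), a difference of 26.0 percentage points (exact permutation test, two-sided, p = 0.0286, the smallest that 4 against 4 can give). Without R117fs replicate 4 the difference was 27.4 points (exact permutation p = 0.0571, the smallest that 3 against 4 can give). As a share of TPM the means were 45.045 ± 9.68% in R117fs and 18.3 ± 2.65% in GFP cells. WT RNF43 libraries lay at 28.7 to 33.7% and G659fs libraries at 20.3 to 26.3%, both overlapping the range of the R117fs libraries, so no order among the RNF43 forms was read from the share. The share rests on how the quantification divided reads between transcripts of the same gene. In R117fs replicate 4 the spliced counts lay on ENST00000344347 (33.2% of XBP1 counts, and 0.00837% on ENST00000611155), while in replicate 3 most lay on ENST00000611155 (33.7%, and 14.05% on ENST00000344347). ENST00000611155 held 8.27 and 33.5% in R117fs replicates 1 and 2, and ENST00000344347 15.1 and 12.4%. In GFP libraries they held 0 to 0.201% and 8.98 to 13.04%. So in replicates 1 to 3 the difference lay mainly on ENST00000611155. The unspliced transcript ENST00000405219 ranged from 1.30% (R117fs replicate 4) to 48.2% (GFP replicate 4). Intervals from counting error were not formed for these shares, since estimated counts are not independent reads.

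**Figure D4:**
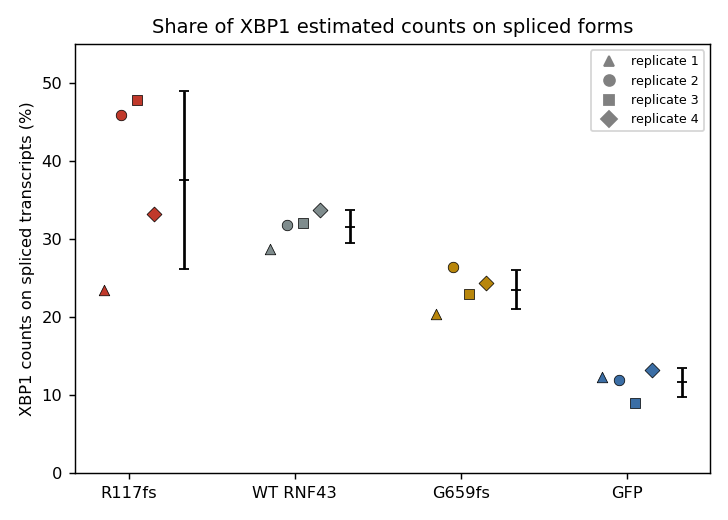
Share of XBP1 estimated counts on transcripts without the 26-base piece (vertical axis, percent) in each of the 4 libraries of R117fs, WT RNF43, G659fs and GFP cells, with mean and SD to the right of the points. R117fs libraries lie at 23.4 to 47.8%, above the GFP libraries at 8.98 to 13.2%.

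On the ATF4 and CHOP arm, 9 of 32 genes rose and 0 fell (7.04% and 8.57% of all genes), with a median of 0.22 log2. Leaving out R117fs replicate 4, also 9 rose and 0 fell (9.85% and 11.9% of all genes), with ASNS, MTHFD2 and CTH in place of DDIT3, TRIB3 and CEBPB. With the 8 libraries alone 4 rose (1.38%). DDIT3 (CHOP), a transcription factor of prolonged ER stress, was at 88.8, 101, 85.6 and 111 CPM in R117fs libraries, against 76.9, 55.4, 74 and 46.9 CPM in GFP libraries. The groups did not overlap, and GFP replicates 2 and 4 lay below the other GFP libraries. The log2 fold change was 0.61 ± 0.15 (edgeR adjusted p = 0.0128), and it did not pass without R117fs replicate 4 (0.54 log2, edgeR adjusted p = 0.0555) or with the 8 libraries alone (edgeR adjusted p = 0.0562). TRIB3, a pseudokinase induced by CHOP, rose by 0.82 ± 0.21 log2 with overlapping groups (edgeR adjusted p = 0.0152) and did not pass without replicate 4 (edgeR adjusted p = 0.0579). The stress hormone gene FGF21, the factor ATF3 and the proline enzyme PYCR1 rose by 0.82 ± 0.17, 0.46 ± 0.07 and 0.53 ± 0.09 log2 (edgeR adjusted p = 0.00463, 0.000422 and 0.000979), also without replicate 4 (edgeR adjusted p = 0.00448, 0.000138 and 0.000348). CHAC1, PPP1R15A and SESN2, further targets of this arm, were at 0.21 ± 0.14, 0.16 ± 0.11 and 0.02 ± 0.14 log2 and did not pass (edgeR adjusted p = 0.319, 0.345 and 0.95). Against WT RNF43 cells 0 of the 32 were higher and 5 lower in R117fs cells (4.5% and 3.62% of all genes), ATF3 among the lower ones (-0.30 ± 0.07 log2, edgeR adjusted p = 0.0166). Against G659fs cells 6 were higher and 1 lower (8.02% and 6.35% of all genes), DDIT3 among the higher ones (1.05 ± 0.16 log2, edgeR adjusted p = 0.000345). With R117fs replicate 4 left out, 3 were higher and 3 lower than in G659fs cells, and 0 were higher and 9 lower than in WT RNF43 cells (12% and 11.5% of all genes against G659fs, 4.7% and 4.79% against WT RNF43).

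Across the 6 lists of ER chaperones, isomerases, degradation, translocon, glycosylation and transport, 70 different genes rose. In 49 of them (70%) replicate 1 was the lowest of the 4 R117fs libraries, against 40.3% of all genes that rose and 21.98% of all genes tested. Replicate 1 also had the lowest RNF43 level of the 4. The part of the RNF43 level in this was not tested, 4 libraries being too few.

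Outside the ER lists, the genes with the largest rises among protein-coding genes included AC005258.1 and SLC22A31. AC005258.1, a clone-named gene on chromosome 19 with no role given here, was at 4.94, 8.96, 10.3 and 11.8 CPM in R117fs libraries, against 0.494, 0.184, 0 and 0 CPM in GFP libraries, where it was close to or at 0 and its fold change is therefore not given. SLC22A31, a predicted member of the organic ion transporter family, was at 5.47, 12.5, 9.48 and 15.4 CPM in R117fs libraries, against 1.67, 1.14, 1.04 and 1.15 CPM in GFP libraries. Neither gene overlapped between groups, as the choice of the 12 largest rises required. SLC22A31 rose by 3.07 ± 0.27 log2 (edgeR adjusted p = 9.94e-07) and exceeded WT RNF43 cells by 2.13 ± 0.23 and G659fs cells by 2.61 ± 0.24 log2 (edgeR adjusted p = 3.27e-05 and 4.58e-06). PLPP5, a lipid phosphatase, rose by 1.24 ± 0.16 log2 (edgeR adjusted p = 6.55e-05) and did not differ detectably from WT RNF43 cells (edgeR adjusted p = 0.682). BEX5 rose by 0.97 ± 0.17 log2 (edgeR adjusted p = 0.00142). HIST2H4B rose by 1.03 ± 0.25 log2 (edgeR adjusted p = 0.01, and 0.0535 with the 8 libraries alone), but it is nearly identical to HIST2H4A, so the split of reads between the copies is uncertain.

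Metabolic lists were tested as well, beside 7.04% of all genes that rose and 8.57% that fell. Of 24 sterol synthesis genes 3 rose and 0 fell, MVD, DHCR7 and NSDHL, by 0.55 ± 0.12, 0.48 ± 0.10 and 0.26 ± 0.06 log2 (edgeR adjusted p = 0.00644, 0.00388 and 0.01). Leaving out R117fs replicate 4, 6 rose and 0 fell (9.85% and 11.9% of all genes). With the 8 libraries alone DHCR7 was the 1 that passed. Of 21 glycolysis genes 6 rose by 0.22 to 0.32 log2, against 7.04% of all genes, and ENO2 fell by 0.44 ± 0.07 (edgeR adjusted p = 0.000318). The 6 were HK2, TPI1, GPI, GAPDH, PFKP and PGAM1, and none of them passed with the 8 libraries alone. The counts were 9 and 2 without R117fs replicate 4, PGK1 included. PGK1 passed too, but its direction turned with the scale. PGK1 changed by -1.10 ± 0.06 log2 on counts (edgeR adjusted p = 1.4e-09) but by 1.18 in the opposite direction with effective lengths as an offset (edgeR adjusted p = 5.07e-09), and its mean level was 469 ± 32.4 TPM in R117fs and 219 ± 13.1 TPM in GFP cells (SD, n = 4 each), so no direction is given for it. Of 13 proteins encoded by the mitochondrial genome 1 rose and 0 fell.

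Cytosolic heat shock genes that passed were lower with 1 exception. Of 26 tested, 9 fell and 1 rose (8.57% and 7.04% of all genes), with a median of -0.27 log2. The counts were 10 and 1 without R117fs replicate 4 (11.9% and 9.85% of all genes). They were 4 and 1 with the 8 libraries alone (2.29% and 1.38%). DNAJB1, the main Hsp40 of the cytosol, was at 70.1, 69.2, 77.3 and 79.6 CPM in R117fs libraries, against 130.5, 174, 131 and 178 CPM in GFP libraries. HSPH1 (Hsp110) averaged 113 ± 17.8 CPM in R117fs and 208 ± 26.1 CPM in GFP cells, and HSP90AA1, the inducible Hsp90, averaged 968 ± 183 CPM in R117fs and 1542 ± 157 CPM in GFP cells (SD, n = 4 each). For these genes every R117fs library was below every GFP library. DNAJB1 fell by 1.05 ± 0.12, HSPH1 by 0.88 ± 0.10, the small heat shock protein HSPB8 by 0.88 ± 0.12 and HSP90AA1 by 0.67 ± 0.11 log2 (edgeR adjusted p = 2.05e-05, 2.02e-05, 0.000169 and 0.000507), and all of these passed with the 8 libraries alone (edgeR adjusted p = 0.0014, 0.0061, 0.00388 and 0.0231). HSPA8, the constitutive Hsp70, was at 767, 474, 528 and 449 CPM in R117fs libraries, against 757, 893, 760.0 and 899 CPM in GFP libraries. It fell by 0.58 ± 0.12 log2 (edgeR adjusted p = 0.00429), with replicate 1 inside the GFP range, and did not pass with the 8 libraries alone (edgeR adjusted p = 0.0635). Nor did the falls of the co-chaperones DNAJA1, STIP1 and AHSA1 and of the small heat shock protein HSPB1 (0.0535, 0.153, 0.173 and 0.115). HSPA1A, the inducible Hsp70, was low and scattered, at 1.83, 0.426, 1.55 and 1.64 CPM in R117fs libraries, against 0.874, 2.28, 3.47 and 4.17 CPM in GFP libraries (-1.06 ± 0.65 log2, edgeR adjusted p = 0.296), and shares reads with its copy HSPA1B. The member that rose was the regulator HSF1, at 0.35 ± 0.11 log2 (edgeR adjusted p = 0.0452, and 0.21 with the 8 libraries alone). Of the 26, 13 were lower in R117fs than in WT RNF43 cells and 11 lower than in G659fs cells, against 3.62% and 6.35% of all genes, and 0 were higher than in either.

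The largest falls among protein-coding genes were in genes with modest levels. ALPK3, an alpha-kinase known from heart muscle, was at 1.38, 1.39, 2.12 and 1.64 CPM in R117fs libraries, against 15.5, 15.3, 14.9 and 15.8 CPM in GFP libraries. FTCD, an enzyme of histidine breakdown, was at 1.2, 1.25, 1.24 and 1.9 CPM in R117fs libraries, against 7.07, 8.21, 7.99 and 8.23 CPM in GFP libraries. DHRS2, a short-chain dehydrogenase, was at 11.7, 6.32, 4.4 and 6.88 CPM in R117fs libraries, against 50.9, 47, 39.7 and 53.9 CPM in GFP libraries. In none of these genes did the groups overlap, as the choice of the 12 largest falls required. The falls were 3.29 ± 0.17, 2.54 ± 0.13 and 2.65 ± 0.28 log2 (edgeR adjusted p = 1.4e-09, 1.4e-09 and 2.89e-05). They related differently to the other RNF43 forms. ALPK3 was lower in R117fs than in WT RNF43 cells (-1.50 ± 0.19 log2, edgeR adjusted p = 0.000213) and in G659fs cells (-1.66 ± 0.19 log2, edgeR adjusted p = 4e-05). FTCD did not differ detectably from either (-0.16 ± 0.16 log2, edgeR adjusted p = 0.556 against WT RNF43, and -0.10 ± 0.16 log2, edgeR adjusted p = 0.719 against G659fs). DHRS2 was lower than in WT RNF43 cells (-1.31 ± 0.28 log2, edgeR adjusted p = 0.0131) and not detectably different from G659fs cells (0.29 ± 0.31 log2, edgeR adjusted p = 0.577).

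PLA2G4C, a cytosolic phospholipase, fell by 1.49 ± 0.10 log2 and was lower than in both other RNF43 groups (edgeR adjusted p = 3.01e-06 and 3.08e-06). Also among the 12 largest falls, the adaptor CASS4, the platelet-activating factor receptor PTAFR, the lipid phosphatase INPP5D and the receptor PILRA fell by 1.58 ± 0.22, 1.33 ± 0.13, 1.32 ± 0.15 and 1.28 ± 0.14 log2 (edgeR adjusted p = 0.000176, 7.03e-06, 2.51e-05 and 1.15e-05). Of 9 tested blood markers 2 fell (median -0.04 log2), among them CD68 by 1.45 ± 0.14 log2 (edgeR adjusted p = 6.17e-06). The summed level over the list was 9.08 to 15.7 CPM in R117fs libraries and 14.6 to 18.025 CPM in GFP libraries, with PTPRC at 0 to 2 counts in R117fs and 2 to 6 counts in GFP libraries. SENP3-EIF4A1 fell by 1.85 ± 0.21 log2 (edgeR adjusted p = 2.39e-05), but it is a readthrough gene that overlaps SENP3 and EIF4A1, so its count is uncertain. AL157392.5, a clone-named gene, fell by 1.23 ± 0.15 log2 (edgeR adjusted p = 4.69e-05).

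**Figure D5:**
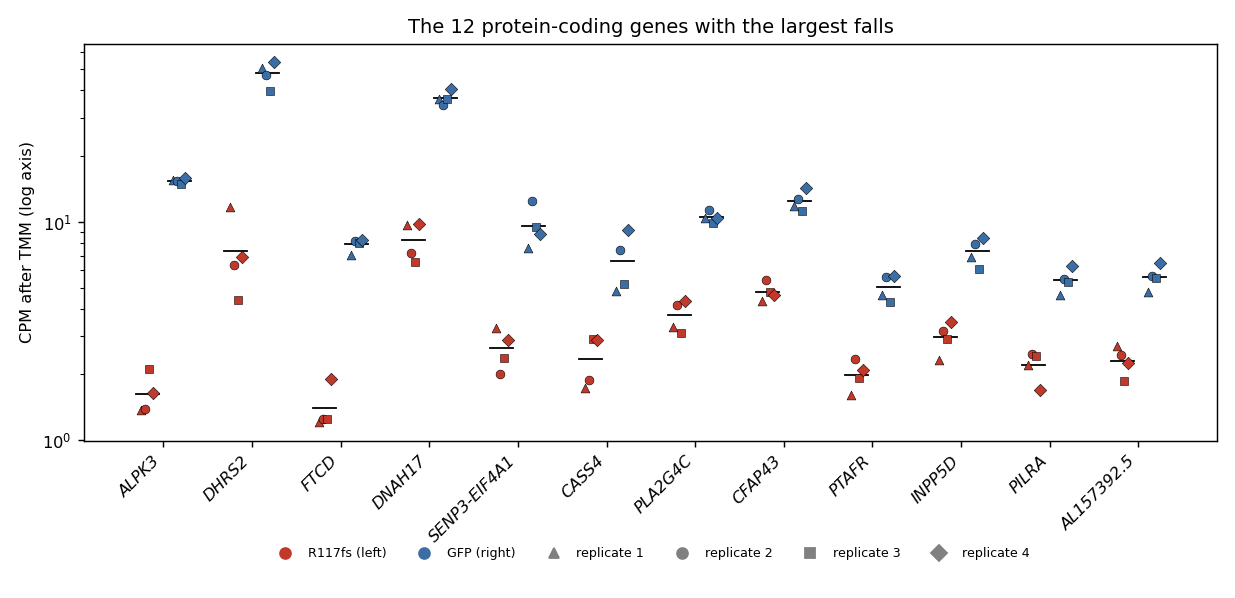
CPM after TMM scaling (log axis) of the 12 protein-coding genes with the largest falls in each R117fs library (red, left) and each GFP library (blue, right), with the group mean as a bar and the replicate as the symbol. Every R117fs point lies below every GFP point of the same gene, as the choice of these genes required.

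Of 36 cilium and axonemal dynein genes, 9 fell and 1 rose (8.57% and 7.04% of all genes), with a median of -0.24 log2. The counts were 10 and 4 without R117fs replicate 4 (11.9% and 9.85% of all genes). They were 5 and 1 with the 8 libraries alone (2.29% and 1.38%). DNAH17, an outer-arm dynein heavy chain, was at 9.69, 7.17, 6.53 and 9.76 CPM in R117fs libraries, against 36.5, 34.4, 36.4 and 40.4 CPM in GFP libraries. CFAP43, a protein of the axoneme, was at 4.32, 5.44, 4.77 and 4.62 CPM in R117fs libraries, against 11.8, 12.7, 11.2 and 14.3 CPM in GFP libraries. Both fell without overlap, a condition for the 12 largest falls, to which they belong. DNAH17 fell by 2.15 ± 0.12 and CFAP43 by 1.38 ± 0.13 log2 (edgeR adjusted p = 2.44e-09 and 2.55e-06). DNAH17 was also lower than in WT RNF43 cells (-2.03 ± 0.12 log2, edgeR adjusted p = 2.47e-08) and G659fs cells (-1.71 ± 0.12 log2, edgeR adjusted p = 1.8e-07). CFAP43 was higher in R117fs than in G659fs cells (0.93 ± 0.15 log2, edgeR adjusted p = 0.000678). The dynein chains DNAH12 and DNAI1 and the dynein subunit WDR78 fell by 1.74 ± 0.24, 1.17 ± 0.25 and 0.81 ± 0.14 log2 (edgeR adjusted p = 0.000149, 0.00444 and 0.000862). CFAP77 rose by 0.91 ± 0.21 log2 (edgeR adjusted p = 0.00816). Across the list 8 genes were higher in R117fs than in WT RNF43 cells and 13 higher than in G659fs cells (4.5% and 8.02% of all genes), while 1 and 2 were lower (3.62% and 6.35%). Leaving out R117fs replicate 4, 8 and 17 were higher (4.7% and 12% of all genes), and 1 and 2 lower (4.79% and 11.5%).

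Of 40 mitosis and spindle genes, 20 fell and 0 rose (8.57% and 7.04% of all genes), with a median of -0.25 log2. The kinesin KIF14 was at 68.3, 70.1, 71.6 and 40.4 CPM in R117fs libraries, against 85.2, 105, 94.9 and 111 CPM in GFP libraries. The checkpoint kinase BUB1 was at 80.6, 91.8, 99.2 and 66.8 CPM in R117fs libraries, against 108, 142, 108 and 147 CPM in GFP libraries. Replicate 4 was the lowest R117fs library for both, and in 18 of the 20 fallen genes. Without it 24 fell and 0 rose (11.9% and 9.85% of all genes), and the median was -0.20 log2. With the 8 libraries alone, replicate 4 included, 0 passed in either direction (2.29% of all genes fell and 1.38% rose). With the 7 left after dropping it 8 fell and 0 rose (7.51% and 5.87%). Leaving out GFP replicate 2 or GFP replicate 4 instead, 8 and 6 fell. The summed level of the list was 7280.5 and 7408 CPM in GFP replicates 2 and 4, and 6285 and 6453 CPM in GFP replicates 1 and 3. At 42.8% the mean GC content of the list was under that of all genes. KIF14 fell by 0.66 ± 0.13 log2 (edgeR adjusted p = 0.00245) and by 0.50 without replicate 4 (edgeR adjusted p = 4.91e-05). The kinase AURKA, cyclin CCNB1 and the topoisomerase TOP2A fell by 0.44 ± 0.11, 0.21 ± 0.06 and 0.30 ± 0.10 log2 (edgeR adjusted p = 0.01, 0.0265 and 0.0414). In R117fs cells 14 of the 40 were lower than in WT RNF43 and 9 lower than in G659fs cells (3.62% and 6.35% of all genes). Without R117fs replicate 4 it was 16 and 11 (4.79% and 11.5%). None was higher than in either. Of 36 DNA replication genes, 2 rose, POLD2 and CDC6, and 1 fell, GINS3. There were 4 in each direction without R117fs replicate 4, and with the 8 libraries alone 1 rose.

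A list of 28 p53 targets had 15 that fell and 0 that rose (8.57% and 7.04% of all genes), with a median of -0.37 log2. Leaving out R117fs replicate 4, 17 fell (11.9% of all genes), and with the 8 libraries alone 7 did (2.29%). CDKN1A (p21), the cell cycle inhibitor, was at 55.5, 64.2, 69.2 and 79.7 CPM in R117fs libraries, against 102, 105, 88.1 and 104 CPM in GFP libraries. The antiproliferative gene BTG2 was at 27, 32.7, 35.2 and 26.9 CPM in R117fs libraries, against 58.5, 65.3, 51.6 and 66.5 CPM in GFP libraries. Neither overlapped between groups. BTG2, the stress factor TP53INP1, the DNA damage sensor DDB2 and the polymerase POLH fell by 0.99 ± 0.10, 0.94 ± 0.13, 0.71 ± 0.10 and 0.64 ± 0.08 log2, and CDKN1A by 0.58 ± 0.09 (edgeR adjusted p = 1.15e-05, 0.000136, 0.000159, 4.74e-05 and 0.000374). Against WT RNF43 cells 2 of the 28 were higher in R117fs cells and 0 lower (4.5% and 3.62% of all genes), and against G659fs cells 7 were higher and 0 lower (8.02% and 6.35%). When R117fs replicate 4 was left out, these counts were 2 and 1 against WT RNF43 (4.7% and 4.79% of all genes). Against G659fs they were 11 and 1 (12% and 11.5%). HEK293 cells carry adenoviral genes whose products bind p53, so p53 output in this line is not that of a normal cell.

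The summed level of the RAS/MAPK output genes was 424 to 473 CPM in R117fs libraries and 380 to 429 CPM in GFP libraries. Of the 21 tested, 6 fell and 1 rose (8.57% and 7.04% of all genes), with a median of -0.20 log2. The counts were 6 and 2 without R117fs replicate 4 (11.9% and 9.85% of all genes). They were 4 and 0 with the 8 libraries alone (2.29% and 1.38%), where ETV1, SPRED2 and MYC, the member that rose, no longer passed. ETV5, a transcription factor induced by ERK signalling, was at 0.677, 0.533, 1.09 and 0.565 CPM in R117fs libraries, against 1.75, 3.2, 1.66 and 3.31 CPM in GFP libraries. The groups did not overlap at these low levels (-1.84 ± 0.34 log2, edgeR adjusted p = 0.00171, and 0.102 with effective lengths as an offset). Its relatives ETV4 and ETV1 fell by 1.43 ± 0.40 and 1.35 ± 0.36 log2, the channel gene KCNN4 by 1.74 ± 0.20, and the pathway inhibitors SPRED3 and SPRED2 by 0.68 ± 0.13 and 0.52 ± 0.13 (edgeR adjusted p = 0.0209, 0.0164, 2.56e-05, 0.00181 and 0.0113). The phosphatases DUSP6 and DUSP4 were at -0.24 ± 0.31 and -0.04 ± 0.19 log2 and did not pass (edgeR adjusted p = 0.657 and 0.922). ETV5 was lower in R117fs than in WT RNF43 cells (-2.94 ± 0.30 log2, edgeR adjusted p = 1.51e-05) and in G659fs cells (-3.66 ± 0.28 log2, edgeR adjusted p = 4.35e-07), and in all 10 of the 21 genes were lower than in WT RNF43 and 12 lower than in G659fs cells. Of all genes 3.62% were lower than in WT RNF43 and 6.35% lower than in G659fs cells. Leaving out R117fs replicate 4, 11 and 14 of the 21 were lower (4.79% and 11.5% of all genes). With or without it, 0 were higher than in WT RNF43 and 1 higher than in G659fs cells. With effective lengths as an offset 2 of the 21 fell against GFP and 1 rose (5.74% and 4.62% of all genes).

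Of 36 lysosomal genes, 10 fell and 1 rose (8.57% and 7.04% of all genes), with a median of -0.18 log2. The number that fell was 18 without R117fs replicate 4 (11.9% of all genes) and 2 with the 8 libraries alone (2.29%). Against WT RNF43 cells 3 of the 36 were lower and 1 higher, and against G659fs cells 6 lower and 0 higher. Of all genes 3.62% and 6.35% were lower. Leaving out R117fs replicate 4, 6 and 16 were lower (4.79% and 11.5%), and 0 and 0 higher. GPNMB, a membrane glycoprotein of lysosomes, was at 1.25, 0.906, 1.45 and 0.616 CPM in R117fs libraries, against 4.67, 4.45, 6.08 and 4.69 CPM in GFP libraries. It fell by 2.23 ± 0.18 log2 without overlap (edgeR adjusted p = 4.96e-07). The proton pump subunit ATP6V1H and the membrane protein LAMP1 fell by 0.50 ± 0.07 and 0.34 ± 0.07 log2, and the glucosidase GAA rose by 0.45 ± 0.09 (edgeR adjusted p = 0.000206, 0.00408 and 0.00203). TCEAL7, of the TCEAL and BEX family, fell by 2.24 ± 0.20 log2 and was lower than in WT RNF43 cells (-2.97 ± 0.19 log2, edgeR adjusted p = 4.33e-08) and G659fs cells (-1.80 ± 0.21 log2, edgeR adjusted p = 4.25e-05).

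Wnt genes, the pathway RNF43 is known for, moved little against GFP, RNF43 itself being left out of the count. Of all genes tested 7.04% rose and 8.57% fell. Of 23 beta-catenin targets tested 2 rose and 0 fell (median 0.04 log2), MYC by 0.34 ± 0.09 and CDX2 by 0.34 ± 0.10 log2 (edgeR adjusted p = 0.0219 and 0.0272). Neither passed with the 8 libraries alone (edgeR adjusted p = 0.0566 and 0.153). AXIN2, the classic feedback target, was at 16.2, 17, 22.8 and 19.2 CPM in R117fs libraries, against 18.7, 23.4, 19.3 and 23.9 CPM in GFP libraries. The groups overlapped (-0.20 ± 0.11 log2, edgeR adjusted p = 0.252), and AXIN2 was at 0.04 ± 0.11 log2 relative to WT RNF43 cells (edgeR adjusted p = 0.863). The targets LEF1 and NKD1 were at 0.04 ± 0.06 and 0.08 ± 0.08 log2 (edgeR adjusted p = 0.727 and 0.543). Without R117fs replicate 4, 3 of the 23 rose and 3 fell (9.85% and 11.9% of all genes). Of 37 Wnt ligands, receptors and regulators 3 rose and 0 fell (median 0.03 log2), the ligand WNT10B by 0.62 ± 0.14, the receptor LGR6 by 0.61 ± 0.19 and the Wnt acyltransferase PORCN by 0.33 ± 0.11 log2 (edgeR adjusted p = 0.00765, 0.0357 and 0.0446). LGR6 and PORCN did not pass without R117fs replicate 4 (edgeR adjusted p = 0.063 and 0.0709), where 2 of the list rose and 0 fell, and 1 rose with the 8 libraries alone. ZNRF3, the relative of RNF43 with the same activity, and the coreceptor LRP6 were at -0.06 ± 0.06 and -0.16 ± 0.09 log2 (edgeR adjusted p = 0.547 and 0.232). Against G659fs cells 5 of the 23 targets were lower and 0 higher, and 8 of the 37 lower and 2 higher. Against WT RNF43 cells each list had 1 lower and 0 higher. Of all genes 6.35% were lower than in G659fs and 3.62% lower than in WT RNF43 cells. Leaving out R117fs replicate 4, 9 of the 23 and 11 of the 37 were lower than in G659fs cells (11.5% of all genes), and 1 and 3 higher. Then 4 of each list were lower than in WT RNF43 cells (4.79%), and 1 higher. The cells received no Wnt or R-spondin that the labels mention.

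Counts over the remaining lists were small against GFP with all libraries, where 7.04% of all genes rose and 8.57% fell. Of 25 immediate early genes 2 rose and 2 fell, of 23 NF-kappaB response genes 2 rose and 1 fell, of 25 interferon genes 1 rose and 1 fell, and of 18 NRF2 and metallothionein genes 2 rose and 0 fell. Of 14 chaperonin and prefoldin genes 1 rose and 0 fell, of 14 histone genes 1 rose and 0 fell, and of 11 TCEAL and BEX genes 1 rose and 1 fell. Leaving out R117fs replicate 4, the chaperonin, NRF2 and NF-kappaB lists each had 4 that rose, and the interferon list 3 that rose and 3 that fell. Of all genes 9.85% then rose and 11.9% fell. With the 8 libraries alone none of these 7 lists had more than 1 in either direction. Against the other RNF43 forms some counts were larger. Of the 23 NF-kappaB genes 8 were lower than in WT RNF43 and 12 lower than in G659fs cells, with 1 and 2 higher. Of the 25 immediate early genes 6 and 10 were lower, and 0 and 0 higher (3.62% and 6.35% of all genes lower). Leaving out R117fs replicate 4, 12 and 14 NF-kappaB and 6 and 15 immediate early genes were lower (4.79% and 11.5%). Among markers, 3 of 8 HEK293 genes rose (NEFM, KRT18 and NEFL, by 0.69 ± 0.17, 0.35 ± 0.08 and 0.29 ± 0.09 log2), 1 gut gene rose (CDX2) and 1 fell (VIL1, by 1.79 ± 0.59 log2, edgeR adjusted p = 0.046, and 0.0611 without R117fs replicate 4), and 0 of 7 fibroblast genes passed, the smallest edgeR adjusted p of those being 0.309.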

How the data were processed

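Total RNA of HEK293 cells was sequenced, per the labels' protocols from column-purified, DNase-treated RNA. The deposited estimated counts and TPM per transcript were made by the authors with kallisto 0.45.1 on GRCh38, per the submitters' processing notes, and the deposited effective lengths served only as an offset. Strand handling and trimming are not given in the sources used here. Transcript identifiers without version matched GENCODE 29 for 162453 of 178136 transcripts, and unmatched transcripts held 1.90 to 2.22% of a library. Estimated counts were summed per gene, rounded to whole numbers and filtered with filterByExpr, leaving 16787 of 35075 genes. edgeR 4.0.16 (TMM, quasi-likelihood, robust) fitted 1 coefficient per group over all 16 libraries, and p-values were adjusted by Benjamini-Hochberg. The common biological coefficient of variation was 0.103. The procedure was tested on simulated data. These had the same dispersion of a gene in every library and no GC trend, so the test did not cover those traits of the R117fs libraries. DESeq2 1.42.0 and limma 3.58.1 were alternatives.

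The comparisons, members and gene lists were chosen with earlier results of these data known. Named genes were the 12 largest rises and 12 largest falls among protein-coding genes that passed with and without R117fs replicate 4 in the same direction, with at least 5 CPM in the higher group and no overlap between groups, then up to 4 changed members with the largest change in each list and members with a central role. Other list members named here were chosen after their values were seen. RNF43 was removed from the lists as the transgene. Promoters came from RefSeq, and the planned scan of proteins for ER retrieval signals was not run. No libraries were duplicates by a chi-square comparison of counts. Same-numbered libraries did not deviate together, with correlations of -0.0483 to 0.0556, so numbers were not used as pairs. Read depth limits low genes, and estimated counts give no exact counting intervals. Results for some list members are not reported here.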

Additional observations from a re-analysis of the deposited data

Results flagged for a closer look

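Among 70 groups of 4 libraries examined, 3 held a library that lay apart from the other 3 by more than Dixon's test allows at 95%, a rule that chance meets in about 1 of 20 groups. PDIA4 was at 405 CPM in R117fs replicate 1, under the 776 to 831 CPM of the other R117fs libraries. HERPUD1 was at 165.5 CPM in R117fs replicate 1, under 226 to 234 CPM in the others. FTCD was at 1.9 CPM in R117fs replicate 4, above 1.204 to 1.25 CPM in the others. All of these values stayed on their own side of the GFP libraries.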

How the results depend on the processing

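The number of genes changed in R117fs against GFP, 2620, became 588 with the 8 libraries alone, 1738 with effective lengths as an offset, 4578 with the GC trend removed, 5111 by limma voom with quality weights, and 4102 with the GC trend removed and R117fs replicate 4 left out together, the last chosen after seeing the data. Leaving out 1 library at a time gave 1455 (without GFP replicate 4) to 3701 (without R117fs replicate 4), with 1718 without GFP replicate 2. Of the 8 libraries alone, the 7 without R117fs replicate 4 gave 2172. The number changed at least 2-fold, 213, became 102 where at least 1 CPM in 4 libraries was required, which tests fewer low genes. Genes differing between R117fs and G659fs numbered 2412, and 4012 without R117fs replicate 4. For XBP1 splicing the difference was 22.6 to 30.7 percentage points with 1 library left out, each with an exact permutation p of 0.0571, the smallest that 3 against 4 can give. With the replicate number as a block 2901 genes changed, and the numbers did not pair the samples. Of 114 named genes, 69 kept their call under all 19 alternatives. The alternatives that ended most calls were the 8 libraries alone (35 of 113), GFP replicate 4 left out (21) and the effective length offset (20). PGK1 alone reversed, at a log2 fold change of 1.18 with the effective length offset, against -1.10 as reported. The cause was not tested for any of these.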

Other observations

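Some genes outside the lists carried an ER stress response element in their promoter and changed in R117fs against GFP. They were picked for their match, after their values were seen. FICD, an ER enzyme that modifies HSPA5, was at 8.98, 12.5, 15.0 and 12.2 CPM in R117fs libraries, against 7.37, 6.70, 6.85 and 6.37 CPM in GFP libraries, without overlap (0.81 ± 0.12 log2, edgeR adjusted p = 0.000235). It did not differ detectably from WT RNF43 cells (0.08 ± 0.11 log2, edgeR adjusted p = 0.69) and was higher than in G659fs cells (0.70 ± 0.11 log2, edgeR adjusted p = 0.000701). SERP1, a translocon-associated stress protein, averaged 189.9 ± 31.9 CPM in R117fs and 131 ± 5.46 CPM in GFP cells (SD, n = 4 each; 0.54 ± 0.09 log2, edgeR adjusted p = 0.000725). Their elements are shown with the same capitals as those above.
FICD, chr12:108515113-108515151, plus strand: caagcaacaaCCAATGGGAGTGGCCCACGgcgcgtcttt
SERP1, chr3:150546700-150546738, minus strand: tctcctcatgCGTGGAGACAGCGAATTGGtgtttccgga
The antiviral gene TRIM5 rose by 0.70 ± 0.14 log2 (edgeR adjusted p = 0.00238) and did not differ detectably from WT RNF43 cells (edgeR adjusted p = 0.939). FRG2B and NUCB1, each with an element, rose by 2.27 and 0.285 log2 (edgeR adjusted p = 6.0e-05 and 0.0461). CNKSR1, a scaffold of RAS signalling, was the 1 gene with an element that fell, by 1.66 ± 0.16 log2 (edgeR adjusted p = 5.05e-06), and it did not differ detectably from WT RNF43 (edgeR adjusted p = 0.373) or G659fs cells (edgeR adjusted p = 0.656).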
